A study of Mus musculus with 25 samples.

Results

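Genes of mitosis were followed across sorted developmental stages of invariant natural killer T (iNKT) cells from mouse thymus. The genes came from a list of 53 symbols drawn up by role, which left out the kinesin motors except Cenpe. A gene was taken where the probe table used here gives its symbol alone to a transcript cluster, which is the unit the array measures. This gave 51 genes with 1 cluster each, of 22206 clusters in all. Ccnb1 and Foxm1 were not analysed here. By role, 12 genes encode cyclins, mitotic kinases and phosphatases, 7 the spindle checkpoint and the anaphase-promoting complex, 8 centromere and kinetochore proteins, 3 subunits of the chromosomal passenger complex, 6 condensin and chromosome proteins, 9 spindle and microtubule proteins and 5 proteins of cytokinesis, and Cdca3 encodes a trigger of mitotic entry.

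In mitosis the kinase CDK1, bound to cyclins A and B, starts chromosome condensation and spindle assembly. The spindle checkpoint holds back the anaphase-promoting complex until each kinetochore is attached, after which the chromosomes separate and the cell is cut into daughter cells. Most of these genes are transcribed late in the cell cycle and are low in resting cells, so their level in a population moves with the share of dividing cells. Immature thymic iNKT cells go through a burst of division before they acquire NK1.1 and largely stop dividing.

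The cells were iNKT cells of C57BL/6 mice, enriched with CD8 microbeads and sorted for the T cell receptor beta chain, binding of CD1d tetramer and absence of CD24. Stage 3 cells (S3) were CD44 and NK1.1 positive. Stage 1 cells (negative for both markers) and stage 2 cells (CD44 positive, NK1.1 negative) were measured together as S1_S2, and the labels do not state their proportions. The genotypes were dKOMst, Mst1KO (without Mst1) and wild type (WT). The name dKOMst is read here as a double knockout of Mst1 and Mst2, which the labels do not spell out. Mst1 and Mst2 are the kinases at the head of the Hippo pathway, and the labels do not say in which cells or with which alleles they were deleted. There were 1 dKOMst, 5 Mst1KO and 7 WT arrays of S3 cells, and 2 dKOMst, 4 Mst1KO and 6 WT arrays of S1_S2 cells. Levels are log2 values, and a step of 1 stands for a 2-fold change. Nothing in the labels ties arrays of a group to separate mice, and p-values here reflect the variation among these arrays, which may be technical. In sorted bulk samples, fewer dividing cells and less RNA per cell cannot be told apart.

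The median level of all clusters lay between 7.28 and 7.39 on each array, and the median of the negative controls between 6.19 and 6.59. Title numbers fell into a lower set of 16 arrays with all Mst1KO arrays, and a higher set of 9 arrays with all dKOMst arrays, while WT arrays lay in both. The fit carries a term for this number set, whose meaning the labels do not give. That term passed the test for 6.13% of all clusters and for 15 of the 51 mitotic genes, each higher in the higher set, with Cdc20 at 1.05 ± 0.16 and Top2a at 0.79 ± 0.17. The sort shows in Klrb1c, which encodes NK1.1: it was 12.22 in the dKOMst array, 12.22 to 12.56 in Mst1KO arrays and 12.41 to 12.69 in WT arrays at S3. At S1_S2 it was 8.27 to 8.38 in dKOMst, 8.79 to 8.99 in Mst1KO and 8.49 to 10.15 in WT arrays. Stk4, the gene of Mst1, was 10.08 on the dKOMst array at S3, and 9.63 and 10.27 on those at S1_S2. It fell in Mst1KO cells at S1_S2 (9.31 ± 0.07 in Mst1KO, SD, n = 4, and 10.46 ± 0.19 in WT, n = 6; limma adjusted p = 0.00592). At S3 Stk4 averaged 9.74 ± 0.28 in Mst1KO (n = 5) and 10.28 ± 0.42 in WT (n = 7), with overlapping arrays and a limma adjusted p of 0.152. The labels do not say whether these probes lie in the deleted stretch of the gene, and Stk3, the gene of Mst2, was not analysed here.

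Promoters were read from RefSeq (mouse build GRCm38.p6), which gave a promoter for 41 of the 51 genes in the table used here. The stretches printed run from 150 bases before the annotated start of transcription to 25 bases after it, 5′ to 3′ on the strand of the gene. They show genes whose levels the results turn on and, last, Pttg1, which stood apart from the rest. Capitals mark 3 motifs known from cell cycle promoters, on either strand: the cell cycle homology region or CHR (TTTGAA or TTCGAA), the CCAAT box (CCAAT) and an E2F core (TTGGCGC or TTCGCGC). An E2F core can share letters with a CCAAT box on the opposite strand.
Mki67 (chr7:135716355-135716529, minus strand): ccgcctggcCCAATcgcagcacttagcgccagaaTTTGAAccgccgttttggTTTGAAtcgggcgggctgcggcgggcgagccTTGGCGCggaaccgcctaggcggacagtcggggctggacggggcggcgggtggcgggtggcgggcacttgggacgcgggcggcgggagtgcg
Cdk1 (chr10:69352888-69353062, minus strand): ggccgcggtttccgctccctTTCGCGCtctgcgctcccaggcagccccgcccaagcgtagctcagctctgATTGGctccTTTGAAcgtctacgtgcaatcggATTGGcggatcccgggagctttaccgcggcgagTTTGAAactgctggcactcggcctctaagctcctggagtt
Top2a (chr11:99024165-99024339, minus strand): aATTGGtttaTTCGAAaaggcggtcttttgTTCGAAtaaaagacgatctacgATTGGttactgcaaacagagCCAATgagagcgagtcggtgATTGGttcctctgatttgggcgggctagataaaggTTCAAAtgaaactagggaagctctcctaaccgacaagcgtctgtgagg
Ube2c (chr2:164769779-164769953, plus strand): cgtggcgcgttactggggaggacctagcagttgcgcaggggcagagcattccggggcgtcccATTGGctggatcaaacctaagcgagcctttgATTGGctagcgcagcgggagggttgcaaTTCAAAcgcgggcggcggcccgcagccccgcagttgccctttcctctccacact
Ccnb2 (chr9:70421530-70421704, minus strand): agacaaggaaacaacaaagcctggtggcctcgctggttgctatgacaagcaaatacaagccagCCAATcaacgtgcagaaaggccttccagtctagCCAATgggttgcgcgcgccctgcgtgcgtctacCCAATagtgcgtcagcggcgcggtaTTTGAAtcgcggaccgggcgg
Ncapg (chr5:45669775-45669949, plus strand): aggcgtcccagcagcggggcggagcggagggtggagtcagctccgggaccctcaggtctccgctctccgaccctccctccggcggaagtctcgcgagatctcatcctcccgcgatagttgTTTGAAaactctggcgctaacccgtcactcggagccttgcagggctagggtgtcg
Pttg1 (chr11:43425957-43426131, minus strand): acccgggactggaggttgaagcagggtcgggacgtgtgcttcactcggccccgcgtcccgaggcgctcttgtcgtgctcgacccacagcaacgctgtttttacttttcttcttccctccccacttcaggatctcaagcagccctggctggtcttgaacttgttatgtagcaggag

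Over a window from 250 bases before to 50 after the start, a CHR was found in 32 of the 41 promoters (78%), against 19.4% of all 27025 promoters in the table. A CCAAT box was found in 30 (73.2%), against 37.9%, and an E2F core in 5 (12.2%), against 3.98%. Both a CHR and a CCAAT box were present in 28 promoters (68.3%), against 7.7% of all. Within 50 bases of the start, a CHR was present in 28 promoters (68.3%), against 5.29%. The median base composition was 58.7% G and C in these promoters and 52.7% in all. Over the 15691 promoters of genes in the probe table it was 57%. Of those, 17.4% had a CHR, 38.8% a CCAAT box, 5.31% an E2F core and 7.3% both a CHR and a CCAAT box. No test was made of these shares. Within the shorter stretches printed, Mki67 has 2 CHR matches, 1 CCAAT box and 1 E2F core, and Ncapg 1 CHR. The printed stretch of Cdk1 carries 2 CHR matches, 2 CCAAT boxes and 1 E2F core. Over the longer window, CCAAT boxes numbered 3 in Mki67, 3 in Cdk1 and 1 in Ncapg, and Cdk1 had 2 E2F cores. None of the 3 motifs was found in the window of Birc5, Mad2l1, Melk, Nuf2, Nusap1, Pttg1 or Tacc3. Of these genes all but Pttg1 were called lower in WT S3 than in WT S1_S2 cells by limma (8.75% of all clusters were). Only the first listed start of each gene was searched, and the part of the motifs in the levels was not tested.

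Mitotic genes were lower in WT S3 than in WT S1_S2 cells. Of the 51 genes, 50 fell and none rose (limma, Benjamini-Hochberg adjusted p under 0.05), where 8.75% of all clusters fell and 8.18% rose. The median difference was -1.47 on the log2 scale, against 0.007 over all clusters. In 39 genes every S3 array lay below every S1_S2 array, which held for 3.42% of all clusters. The mean over the 51 genes was 6.95 to 7.57 on the S3 arrays and 8.30 to 9.17 on the S1_S2 arrays.

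**Figure D1:**
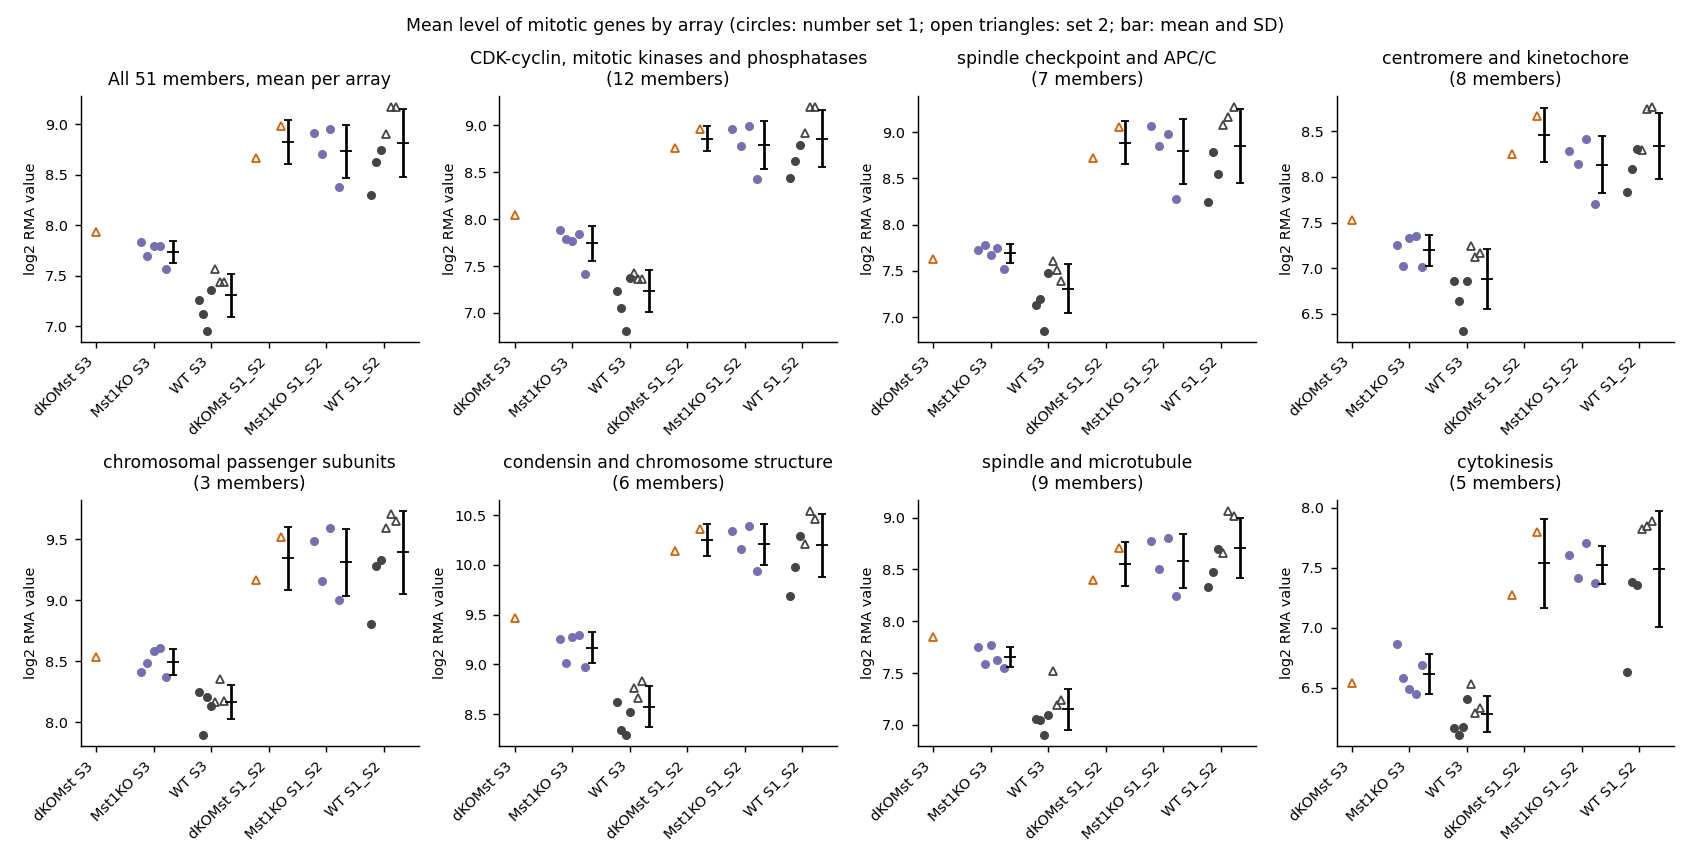
Mean log2 level on each array (vertical axis) of all 51 mitotic genes and of the genes of each role with 3 or more members, by genotype and stage. Circles are arrays of the lower number set, open triangles of the higher set, and bars the mean and SD of a group. The S3 arrays lie below the S1_S2 arrays in the panel of all genes, and at S3 the Mst1KO arrays average 7.74 and the WT arrays 7.30.

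All 12 cyclin, kinase and phosphatase genes fell in WT S3 cells, with a median of -1.74. Cdk1, the central mitotic kinase, had a lowest, median and highest level of 6.29, 6.66 and 7.71 on WT S3 arrays and of 8.74, 9.51 and 10.11 on WT S1_S2 arrays, without overlap. Pbk, a mitotic kinase also called TOPK, had the largest fall of the role, at -2.93 ± 0.40 (SE; adjusted p = 7.96e-06), with 1 S3 array far below the others at 4.60. Cyclin A2 (Ccna2) fell by 2.00, cyclin B2 (Ccnb2) by 1.76, and Plk1, the polo-like kinase of spindle poles and kinetochores, by 2.05. Aurora A (Aurka), which matures the spindle poles, fell by less (-0.72 ± 0.16, adjusted p = 0.00262), and its arrays overlapped. The smallest fall was that of the kinase gene Melk (-0.58 ± 0.18, adjusted p = 0.0288). Melk read above the median negative control on no array of any group, and its call was lost when any of 5 single arrays was left out (adjusted p up to 0.0835).

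Of 7 genes of the spindle checkpoint and the anaphase-promoting complex 6 fell, with a median of -1.72. The checkpoint kinase gene Bub1 had a difference of -2.21 ± 0.27 (adjusted p = 1.16e-06), and read above the controls on only 1 of 7 WT S3 arrays. Bub1b, which encodes the checkpoint protein BubR1, read above the controls on no WT S3 array, and its fall is given as a bound of at least 1.98-fold. Cdc20, an activator of the anaphase-promoting complex, fell by 1.72, and Ube2c, its ubiquitin-conjugating enzyme, had a difference of -1.97 ± 0.18. Mad2l1, which encodes the checkpoint protein Mad2, fell least of the 6 (-0.95 ± 0.10, adjusted p = 1.06e-07).

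Pttg1, which encodes securin, the inhibitor of the protease that separates sister chromatids, was the 1 exception among the 51. Its level had a lowest, median and highest value of 10.46, 10.92 and 11.47 on WT S3 arrays and of 10.68, 11.04 and 11.15 on WT S1_S2 arrays. The difference was -0.07 ± 0.12 (adjusted p = 0.802), and the WT S3 range covered the whole WT S1_S2 range.

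All 8 centromere and kinetochore genes fell, with a median of -1.15. Cenpe, which encodes a kinetochore motor of chromosome alignment, had the largest fall (-2.24 ± 0.19, adjusted p = 4.6e-09). Ska3, of the complex that couples kinetochores to microtubules, fell by at least 2.49-fold, since no WT S3 array read above the controls. Cenpa, the histone of the centromere, fell by less, to 10.22 ± 0.23 at S3 (SD, n = 7), against 11.12 ± 0.19 at S1_S2 (n = 6). Cenpf, a large kinetochore protein, had the smallest fall (-0.84 ± 0.15, adjusted p = 2.28e-04). In the chromosomal passenger complex, Birc5 (survivin) fell by 1.51, Cdca8 (borealin) by 1.47 and the scaffold gene Incenp by 0.62, with adjusted p of 2.57e-05 or below and no overlap.

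Of the 6 condensin and chromosome genes all fell, with a median of -1.62. Mki67, which encodes the Ki-67 protein that coats mitotic chromosomes, stood at 8.36, 8.996 and 9.45 (lowest, median, highest) on WT S3 arrays and at 11.10, 11.58 and 11.96 on WT S1_S2 arrays. Ncapg, a condensin subunit, fell by 2.24 and Top2a, the topoisomerase that untangles sister chromatids, by 2.03. The condensin genes Ncapd2 (-0.70 ± 0.10) and Smc4 (-0.86 ± 0.10) had smaller falls, and Ncapd2 arrays overlapped.

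The 9 spindle and microtubule genes all fell, with a median of -1.71, led by Stmn1 (stathmin, which destabilises microtubules; -2.13 ± 0.13, adjusted p = 9.52e-12). Nusap1, which bundles spindle microtubules, fell by 2.08 and Tacc3, of the spindle poles, by 0.58. All 5 cytokinesis genes fell, with a median of -1.20, and the groups overlapped in 4 of them. Racgap1, of the centralspindlin complex, had the largest fall (-1.51 ± 0.23, adjusted p = 2.36e-05). Anln, an actin scaffold, Cep55, an abscission factor, and Ect2 read above the controls on no WT S3 array. The falls are therefore at least 1.26-fold for Anln, 1.38-fold for Cep55 and 1.04-fold for Ect2. Cdca3 fell by 1.77. Within the lower number set 45 genes were called lower over the WT stages and within the higher set 46. Over all clusters, calls in either direction numbered 1921 and 1904 in these sets, and 3760 in the main fit.

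**Figure D2:**
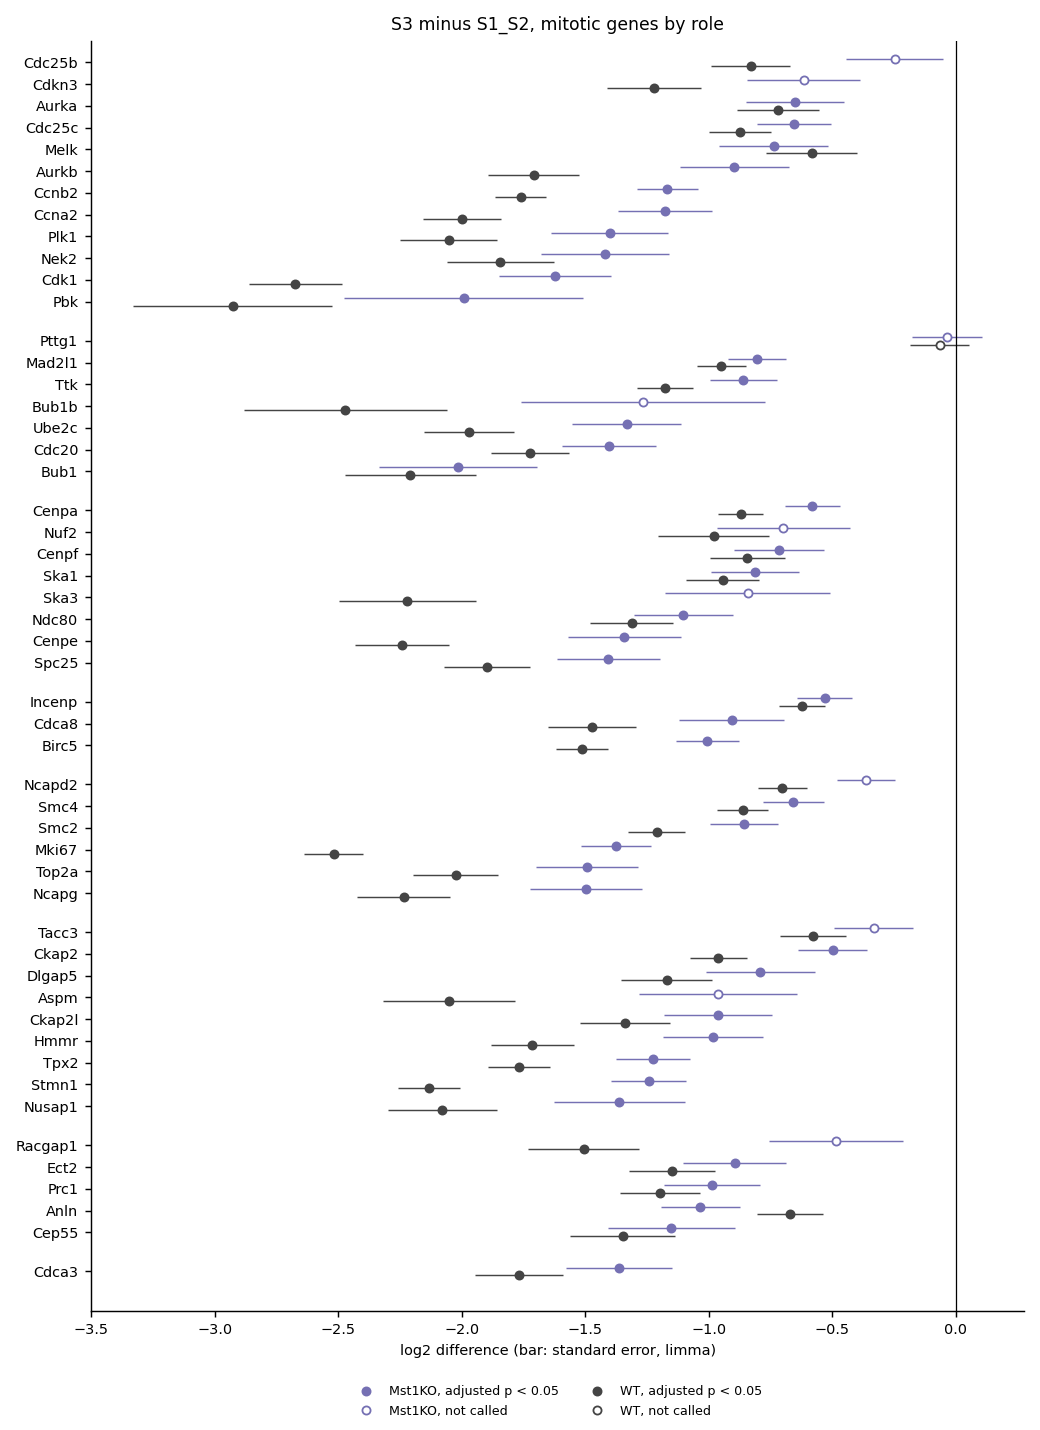
Difference between S3 and S1_S2 cells on the log2 scale (horizontal axis, with SE) for each of the 51 genes, grouped by role, in Mst1KO and in WT cells. Filled points passed limma at an adjusted p under 0.05. The points of 49 genes lie nearer to 0 in Mst1KO than in WT cells, and both points of Pttg1 lie near 0.

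Mitotic genes were also lower in S3 than in S1_S2 cells without Mst1. Of the 51 genes 41 fell (4.62% of all clusters) and none rose (5.58% of all) in Mst1KO cells, with a median of -0.96, against -0.04 over all clusters. In 39 genes every Mst1KO S3 array lay below every S1_S2 array (7.09% of all clusters). The largest falls were those of Bub1 (-2.02 ± 0.32, adjusted p = 1.14e-04), Pbk (-1.99 ± 0.48, adjusted p = 0.00792) and Cdk1 (-1.62 ± 0.23, adjusted p = 2.14e-05). Bub1 read above the controls on only 1 of the 5 Mst1KO S3 arrays. The 10 genes not called were Cdc25b, Cdkn3, Bub1b, Pttg1, Nuf2, Ska3, Ncapd2, Tacc3, Aspm and Racgap1. Among them Racgap1, at 8.14, 8.47, 7.87, 8.04 and 8.13 on Mst1KO S3 arrays and 8.49, 8.75, 9.10 and 8.13 on Mst1KO S1_S2 arrays, differed by -0.48 ± 0.27 (adjusted p = 0.295). Cdc25b, a phosphatase that activates CDK1, differed by -0.25 ± 0.19 (adjusted p = 0.484). Leaving out Mst1KO replicates 3 and 4 of both stages left 28 genes called. Over all clusters it left 953 calls in either direction, against 2266 in the main fit.

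At S1_S2 no mitotic gene was called between Mst1KO and WT cells by limma (0.522% of all clusters were). An unadjusted p under 0.05 was found for 2 of 51 genes and for 1921 of all 22206 clusters. The median difference was 0.12. It was -0.12 with all arrays and no term for the number set, so with all arrays its direction depends on that term. With the arrays of the lower number set alone, which need no term, the median was 0.20. The differences ran from -0.42 ± 0.52 for Bub1b to 0.77 ± 0.34 for Bub1, which had the lowest adjusted p of 0.497. Bub1 was 8.43, 7.86, 8.05 and 7.73 on the Mst1KO arrays and 6.55, 7.57 and 8.03 (lowest, median, highest) on the WT arrays. Cenpa lay lower on all 4 Mst1KO arrays (10.86, 10.87, 10.86 and 10.36) than on any of the 6 WT arrays (10.90 to 11.38), which 1.08% of all clusters did, with a fitted difference of -0.23 ± 0.12 (adjusted p = 0.612). Against the 3 WT arrays of the lower number set alone, Bub1, Incenp and Ect2 lay higher on all Mst1KO arrays (3.98% of all clusters) and Cenpa lower (4.30%). Mki67 was 11.73, 11.45, 11.80 and 11.17 on Mst1KO arrays and 11.10 to 11.96 on WT arrays, which enclosed all of the Mst1KO values.

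At S3 mitotic genes were higher in Mst1KO than in WT cells. Of the 51 genes 21 rose (3.73% of all clusters) and none fell (2.64% of all), and 49 had a positive difference. The median difference was 0.59, against -0.05 over all clusters. The mean over the 51 genes was 7.83, 7.70, 7.80, 7.80 and 7.57 on the Mst1KO arrays and ran from 6.95 to 7.57 on the WT arrays. All 21 genes that rose had fallen over the WT stages. Both comparisons use the same WT S3 arrays.

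**Figure D3:**
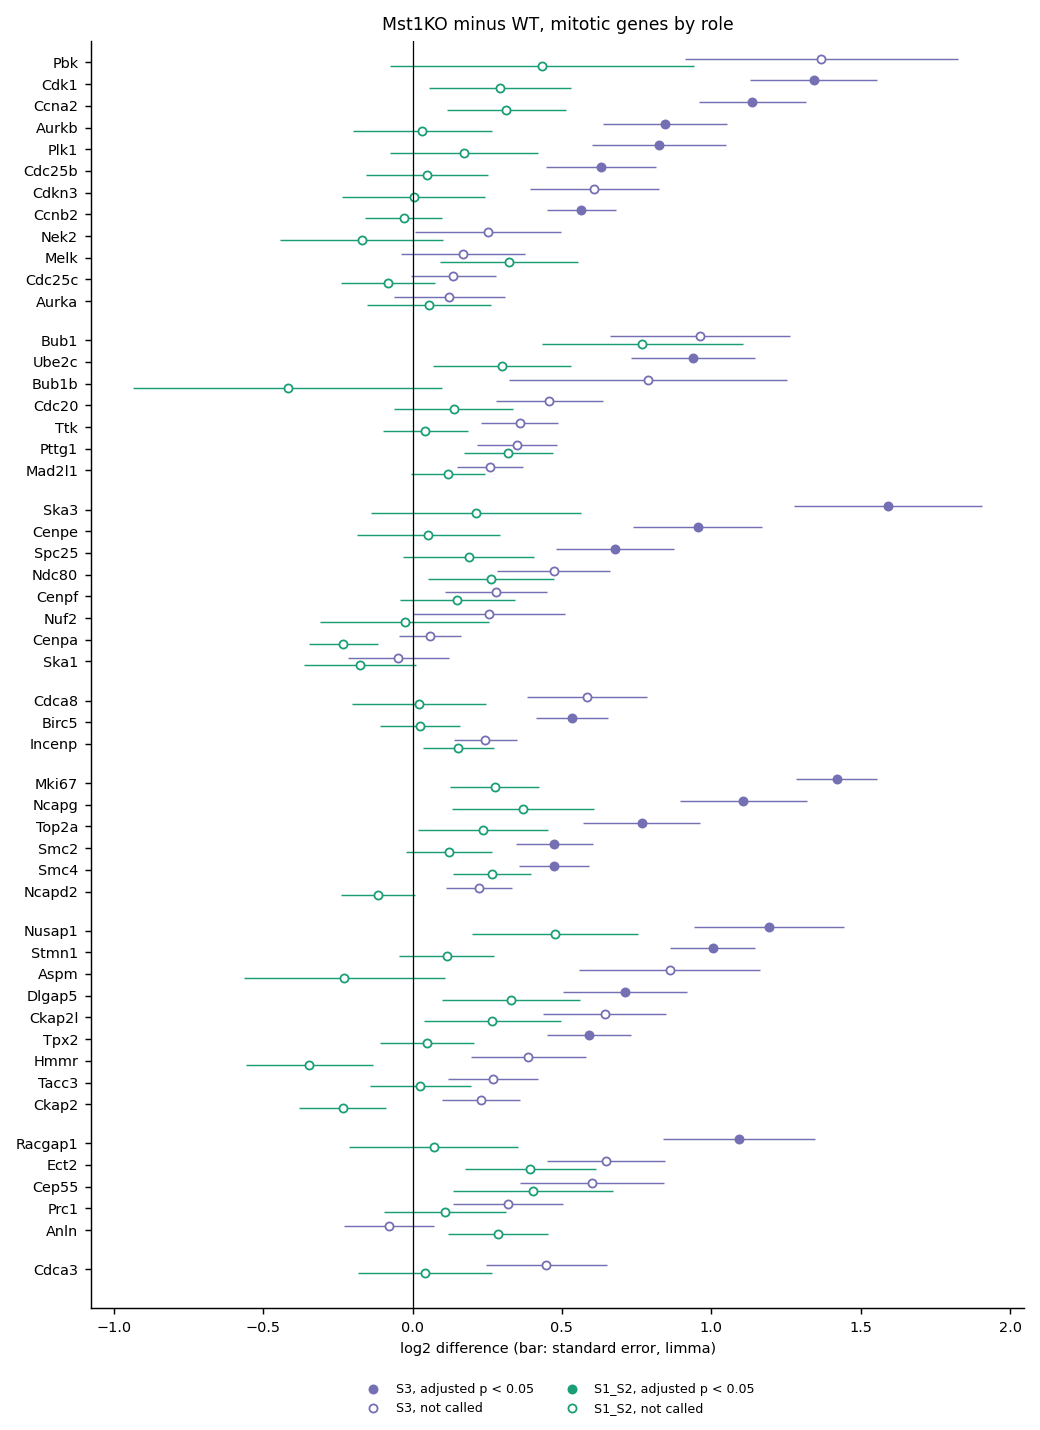
Difference between Mst1KO and WT cells on the log2 scale (horizontal axis, with SE) for the 51 genes by role, at S3 and at S1_S2. Filled points passed limma at an adjusted p under 0.05: 21 genes at S3 and none at S1_S2.

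With the arrays of the lower number set alone, the Mst1KO S3 mean lay above the WT S3 mean and below the WT S1_S2 mean for 48 genes, all but Pttg1, Ska1 and Anln. In 30 genes all Mst1KO S3 arrays also lay below all WT S1_S2 arrays of that set. The shares of all clusters with either pattern were not computed, so neither count can be set against them. In 5 genes every Mst1KO S3 array lay above all 7 WT S3 arrays (1.46% of all clusters) and in none below (1.07%). Against the 4 WT S3 arrays of the lower set, 14 genes lay above (3.85% of all clusters) and none below (4.64%). Those 14 were Cdk1, Ccna2, Ccnb2, Ube2c, Cenpe, Spc25, Birc5, Ncapg, Smc4, Mki67, Tpx2, Nusap1, Stmn1 and Racgap1.

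Among the cyclins, kinases and phosphatases 6 of 12 rose in Mst1KO S3 cells. Cdk1 was 8.25, 7.86, 7.28, 8.01 and 7.54 on Mst1KO arrays and 6.29, 6.66 and 7.71 (lowest, median, highest) on WT arrays, a difference of 1.34 ± 0.21 (adjusted p = 6.49e-04). The highest WT array, of the higher number set, lay within the Mst1KO range. Ccna2 was 8.72, 8.45, 8.72, 8.83 and 8.15 on Mst1KO arrays and 6.88, 7.69 and 8.13 on WT arrays, so that the groups did not overlap (1.14 ± 0.18, adjusted p = 6.26e-04). Ccnb2 (0.56 ± 0.12), Cdc25b (0.63 ± 0.18), Plk1 (0.83 ± 0.22) and Aurkb, the kinase of the passenger complex (0.84 ± 0.21), rose by less. Pbk had the largest difference of the role (1.37 ± 0.46) and was not called (adjusted p = 0.0727), with 1 low array in each group, at 7.47 in Mst1KO and 4.60 in WT. Aurka was 7.07 to 7.48 on Mst1KO arrays and 6.86 to 7.58 on WT arrays (0.12 ± 0.19, adjusted p = 0.723).

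Of the 7 checkpoint and anaphase-promoting complex genes only Ube2c rose. It was 7.76, 8.13, 8.17, 8.07 and 7.58 on Mst1KO S3 arrays and 6.70, 7.22 and 7.58 on WT S3 arrays (0.94 ± 0.21, adjusted p = 0.00981). Bub1 differed by 0.96 ± 0.30 (adjusted p = 0.0569) and Mad2l1 by 0.26 ± 0.11 (adjusted p = 0.154). In each group only 1 array read above the controls for Bub1. Bub1b split the Mst1KO arrays: 2 stood at 6.24 and 6.57 and 3 between 4.11 and 4.66, while WT arrays ran from 4.34 to 5.94. Only 1 of the 5 Mst1KO arrays and no WT array read above the controls for Bub1b.

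Cenpe, Spc25 and Ska3 rose among the 8 kinetochore genes. Cenpe was 7.81, 7.14, 7.04, 7.60 and 7.36 on Mst1KO S3 arrays and 5.55, 6.79 and 7.31 on WT S3 arrays (0.95 ± 0.22, adjusted p = 0.0117). Spc25, of the NDC80 complex, rose by 0.68 ± 0.20, while Ndc80 and Nuf2 of the same complex did not pass (0.47 ± 0.19 and 0.26 ± 0.25). Ska3 averaged 6.57 in Mst1KO and 5.32 in WT cells (adjusted p = 0.00437), and since no WT array read above the controls the rise is at least 1.21-fold. Ska1, its partner, was below the controls on all arrays of both groups. In the passenger complex Birc5 rose (9.21, 9.20, 9.35, 9.34 and 9.28 in Mst1KO; 8.52, 8.82 and 9.15 in WT; 0.53 ± 0.12, adjusted p = 0.0114), without overlap. Cdca8 (0.59 ± 0.20, adjusted p = 0.0809) and Incenp (0.24 ± 0.11, adjusted p = 0.164) were not called.

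Of the 6 chromosome genes 5 rose, all but Ncapd2 (0.22 ± 0.11, adjusted p = 0.225). Mki67 was 10.27, 10.06, 10.45, 10.13 and 9.89 on Mst1KO S3 arrays and 8.36, 8.996 and 9.45 on WT S3 arrays (1.42 ± 0.13, adjusted p = 1.36e-06). Every Mst1KO array lay above every WT array. Ncapg was 7.81, 7.37, 7.96, 7.81 and 7.29 on Mst1KO arrays and 5.82, 6.72 and 7.1997 on WT arrays, again without overlap (1.11 ± 0.21, adjusted p = 0.00353). Smc2 and Smc4, the coiled-coil core of condensin, each rose by 0.47, and Top2a by 0.77 ± 0.20.

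Tpx2, Nusap1, Dlgap5 and Stmn1 rose among the 9 spindle genes, and Racgap1 alone among the 5 of cytokinesis. Stmn1 was 10.41, 10.37, 10.69, 10.46 and 10.07 on Mst1KO S3 arrays and 8.80, 9.65 and 10.14 on WT S3 arrays (1.00 ± 0.14, adjusted p = 1.81e-04). Nusap1 was 8.10, 7.71, 8.38, 8.03 and 7.31 on Mst1KO arrays and 6.19, 7.12 and 7.68 on WT arrays (1.19 ± 0.25, adjusted p = 0.00687). Both pairs overlapped only in the lowest Mst1KO array, replicate 5. Racgap1 rose by 1.09 ± 0.26 (adjusted p = 0.0137), and Anln, below the controls on all arrays of both groups, differed by -0.08 ± 0.15. Ckap2, a spindle pole protein, had the smallest difference among the spindle genes (0.23 ± 0.13), also with both groups below the controls.

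**Figure D4:**
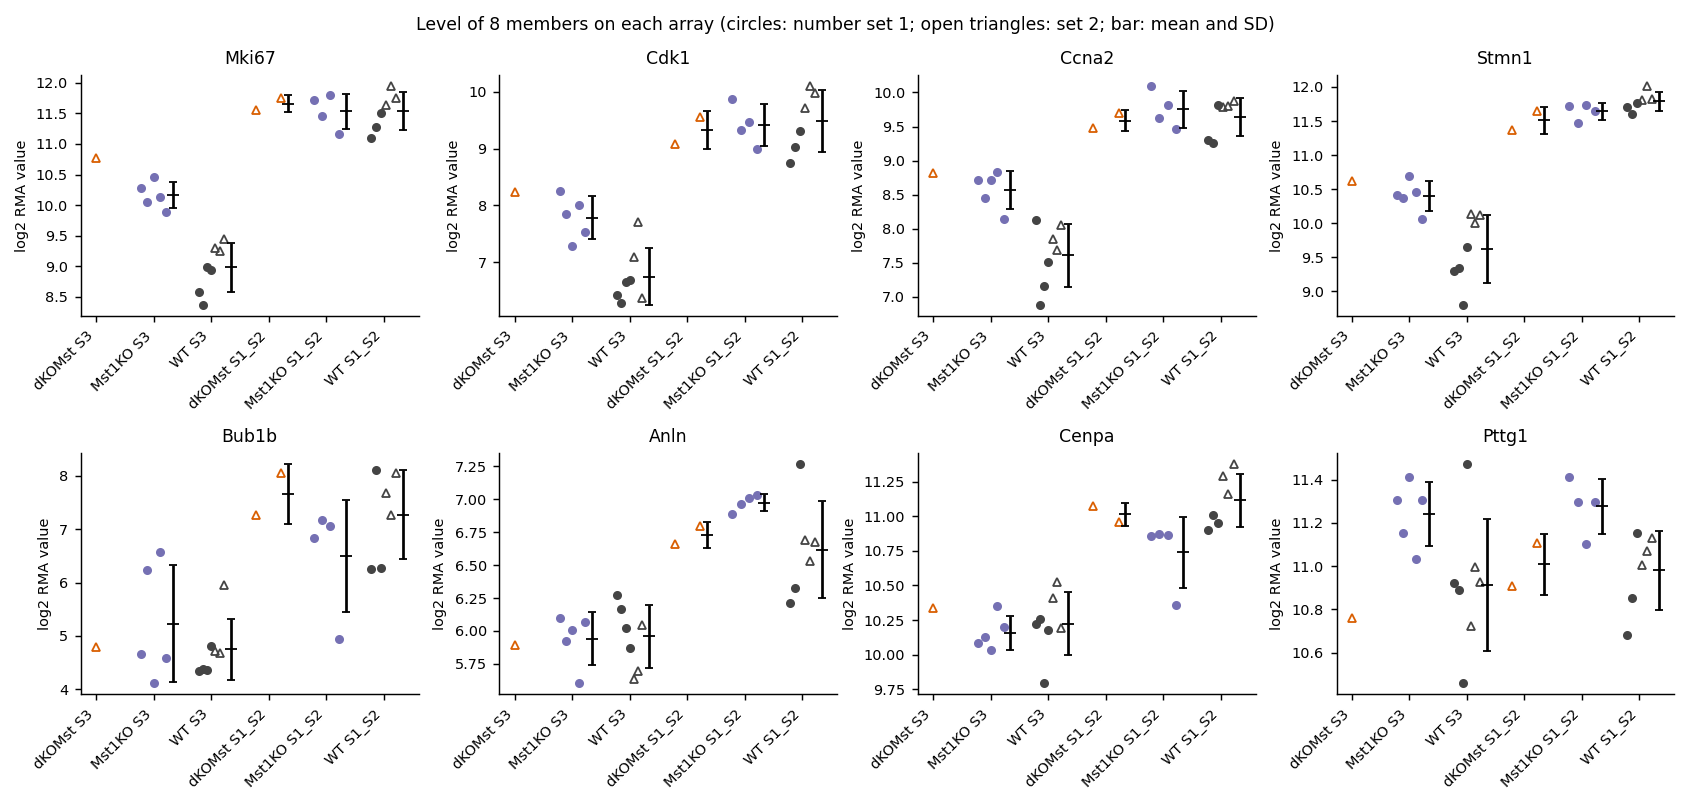
Log2 level on each array (vertical axis) of Mki67, Cdk1, Ccna2, Stmn1, Bub1b, Anln, Cenpa and Pttg1 by genotype and stage. Circles are the lower and open triangles the higher number set, and bars the mean and SD of a group. For Mki67 the 5 Mst1KO S3 arrays lie between 9.89 and 10.45, above all WT S3 arrays (8.36 to 9.45) and below all S1_S2 arrays.

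Of the 21 rises, 13 stayed called whichever single S3 array was left out. The calls of Aurkb, Cdc25b, Dlgap5, Plk1, Smc2, Smc4, Spc25 and Top2a were each lost without at least 1 array, with adjusted p of up to 0.0514 for Aurkb and 0.1 for Dlgap5. With the arrays of the lower number set alone 11 genes were called, with no number set term 14. Without Mst1KO replicates 3 and 4 of both stages 7 were called. Over all clusters, calls in either direction numbered 1415 in the main fit, and 679, 731 and 475 in these settings. The 4 arrays of Mst1KO replicates 3 and 4 had mean levels of 4.74 to 4.84 for 3 Y-linked genes. All other arrays had 7.05 to 8.02, and the part of sex in the result was not tested. Cdk1, Ccna2, Mki67 and Stmn1 were called under every alternative run.

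Marker genes of other cells were read beside this result. Of 7 measured genes of double-positive thymocytes, which also divide, Cd8b1 was higher (0.73 ± 0.18, adjusted p = 0.0183) and Cd4 lower (-0.47 ± 0.11, adjusted p = 0.0126) in Mst1KO S3 cells. The mean over the 7 was 7.94 to 8.12 on Mst1KO and 7.52 to 8.004 on WT arrays. The other 5 genes were not called: Dntt differed by 0.87 ± 0.32 (adjusted p = 0.0988), Cd8a by 0.49 ± 0.19 (adjusted p = 0.115), Cd1d1 by -0.27 ± 0.13 (adjusted p = 0.214) and Ptcra by -0.24 ± 0.11 (adjusted p = 0.172). Rag2, near the controls at 5.82 to 6.63 in Mst1KO and 5.38 to 6.16 in WT, differed by 0.02. Of the 7 genes 5 had a limma unadjusted p under 0.05, as did 5244 of all 22206 clusters. Of 3 natural killer cell genes Eomes and Itga2 were higher and Ncr1 lower, and their mean was 7.05 to 7.71 on Mst1KO and 6.96 to 7.61 on WT arrays. Markers of B cells, myeloid cells and thymic epithelium averaged 6.24 to 6.67 on Mst1KO and 6.31 to 6.76 on WT arrays, close to the negative controls. The erythroid genes Klf1 and Alas2 were not called (median difference -0.23), with a mean of 7.33 to 7.65 on Mst1KO and 7.43 to 8.03 on WT arrays. Cd24a, the gene of the CD24 marker that the sort excluded, was called higher (0.52 ± 0.15, adjusted p = 0.0415), though it read below the controls on every array, at 5.05 to 5.86 in Mst1KO and 4.83 to 5.32 in WT. Of 5 measured genes of iNKT and T cells, 1 was higher (0.64, limma adjusted p = 0.00364) and 4 were not called, with a median difference of -0.09. The mean over the 5 was 12.09 to 12.14 on Mst1KO and 11.996 to 12.08 on WT arrays. The part of other cells in the higher mitotic levels was not tested.

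The Mst1KO effect at S3 minus the effect at S1_S2 was positive for 49 of 51 genes, with a median of 0.42, against -0.03 over all clusters. By limma it was called positive for 1 gene (0.0901% of all clusters) and negative for none (0.0675%). That gene was Mki67, at 1.14 ± 0.19 (limma adjusted p = 0.00631). A limma unadjusted p under 0.05 was found for 19 of the 51 genes and for 2107 of all 22206 clusters. With the arrays of the lower number set alone, Mki67 had an adjusted p of 0.0987, with no number set term 0.0708, and without Mst1KO replicates 3 and 4 of both stages 0.205. The values of Cdk1 (1.05 ± 0.29, adjusted p = 0.202), Stmn1 (0.89 ± 0.20, adjusted p = 0.065) and Ccna2 (0.82 ± 0.25, adjusted p = 0.257) were positive and not called. Without WT S3 replicate 3, Stmn1 was called as well (adjusted p = 0.0477). For the other mitotic genes a difference between the stages in the effect of Mst1 loss was not shown.

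In dKOMst cells no mitotic gene was called against WT at S1_S2 by limma (0.923% of all clusters were). An unadjusted p under 0.05 was found for 7 of 51 genes and for 2361 of all 22206 clusters. The median difference was -0.18 with the number set term and 0.03 without it, and 41 genes were negative. It was -0.04 without dKOMst replicate 1, -0.37 without dKOMst replicate 2 and -0.11 without WT replicate 5. Within the higher number set, which holds both dKOMst arrays and 3 of the WT arrays, 22 genes lay lower on both dKOMst arrays than on all 3 WT arrays (13.1% of all clusters). Cdc25b alone lay higher (15.7% of all). With the WT arrays of both sets, Ccnb2 lay below all (6.68% of clusters) and Cdc25b above all (7.66%). The 22 included Cdk1, Ccna2, Ccnb2, Aurkb, Birc5, Tpx2 and Stmn1. Ccnb2 was 10.31 and 10.52 on the dKOMst arrays, below all 6 WT arrays at 10.53 to 11.05 (-0.47 ± 0.16, adjusted p = 0.206). Stmn1 was 11.37 and 11.65 in dKOMst and 11.61 to 12.02 in WT (-0.54 ± 0.19, adjusted p = 0.245). Cdc25b was 10.26 and 10.30 in dKOMst and 9.22 to 9.98 in WT (0.62 ± 0.25, adjusted p = 0.34). Mki67 was 11.56 and 11.76 in dKOMst, within the WT range (-0.16 ± 0.18). Klrb1c, unlike the mitotic genes, was called lower in these dKOMst cells (-1.18 ± 0.25, limma adjusted p = 0.0198). Of 3 natural killer cell genes Eomes was higher (adjusted p = 0.0203), at 6.99 and 7.01 in dKOMst cells and on no WT array above the controls. The mean of the 3 was 6.84 and 6.98 on dKOMst and 6.30 to 6.74 on WT arrays. Of 6 myeloid and dendritic cell genes Itgam (0.93 ± 0.18, adjusted p = 0.00803) and Lyz2 (0.70 ± 0.16, adjusted p = 0.0369) were higher, and the mean of the 6 was 6.45 and 6.48 on dKOMst and 6.11 to 6.48 on WT arrays. The part of these markers in the mitotic levels was not tested.

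Against Mst1KO at S1_S2, dKOMst cells had a median difference of -0.29, and 0 of 51 genes were called by limma (0.171% of all clusters were). An unadjusted p under 0.05 was found for 11 of the 51 and for 1887 of all 22206 clusters. The arrays did not overlap for 8 genes higher (15.5% of all clusters) and 4 lower (15.0%) in dKOMst cells. These groups share no number set, and with no term for it the median was 0.09. With the term it was -0.15 without dKOMst replicate 1 and ran from -0.44 to -0.22 when other single arrays of these groups were left out. Bub1 had the lowest adjusted p, of 0.273: it was 6.97 and 6.86 in dKOMst and 8.43, 7.86, 8.05 and 7.73 in Mst1KO cells, without overlap (-1.54 ± 0.49). Mad2l1 was 10.29 and 10.42 in dKOMst cells, within the Mst1KO range of 10.08 to 10.47 (-0.24 ± 0.18).

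The 1 dKOMst array of S3 cells gives values with no test. Against the 3 WT S3 arrays of its number set, 43 of 51 genes were higher and the median difference was 0.40, against 0.0004 over all clusters. A difference of at least 1.5-fold was reached upward by 21 genes (1.88% of all clusters) and downward by none (2.44%). In 17 of the 21 all 4 arrays read above their controls. The other 4 were Melk, below the controls on all 4 arrays, Ska3, below them on all 3 WT arrays, and Cdk1 and Aspm, below them on some WT arrays. The array lay above all 7 WT S3 arrays for 30 genes (11.7% of all clusters) and below all 7 for none (13.2%). Mki67 was 10.77 on the dKOMst array and 9.25 to 9.45 on those 3 WT arrays. Ncapg was 8.08 against 6.67 to 6.94, and Cdk1 8.24 against 6.37 to 7.71. Plk1 was 9.04 against 7.70 to 8.36, Birc5 9.72 against 8.81 to 9.15 and Cdkn3, a phosphatase that acts on cyclin-dependent kinases, 8.21 against 6.74 to 7.54. Of the checkpoint genes, Bub1 (5.57), Mad2l1 (9.39), Cdc20 (8.29) and Pttg1 (10.76) lay within the range of the 7 WT arrays. Aurka (7.30), Nuf2 (6.64) and Incenp (8.12) also lay within it. The 3 natural killer cell genes averaged 8.22 on the dKOMst array and 6.96 to 7.61 on the 7 WT S3 arrays, the 7 double-positive thymocyte genes 7.84 and 7.52 to 8.004, and the 2 erythroid genes 7.99 and 7.43 to 8.03. The part of these markers in the mitotic levels was not tested.

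**Figure D5:**
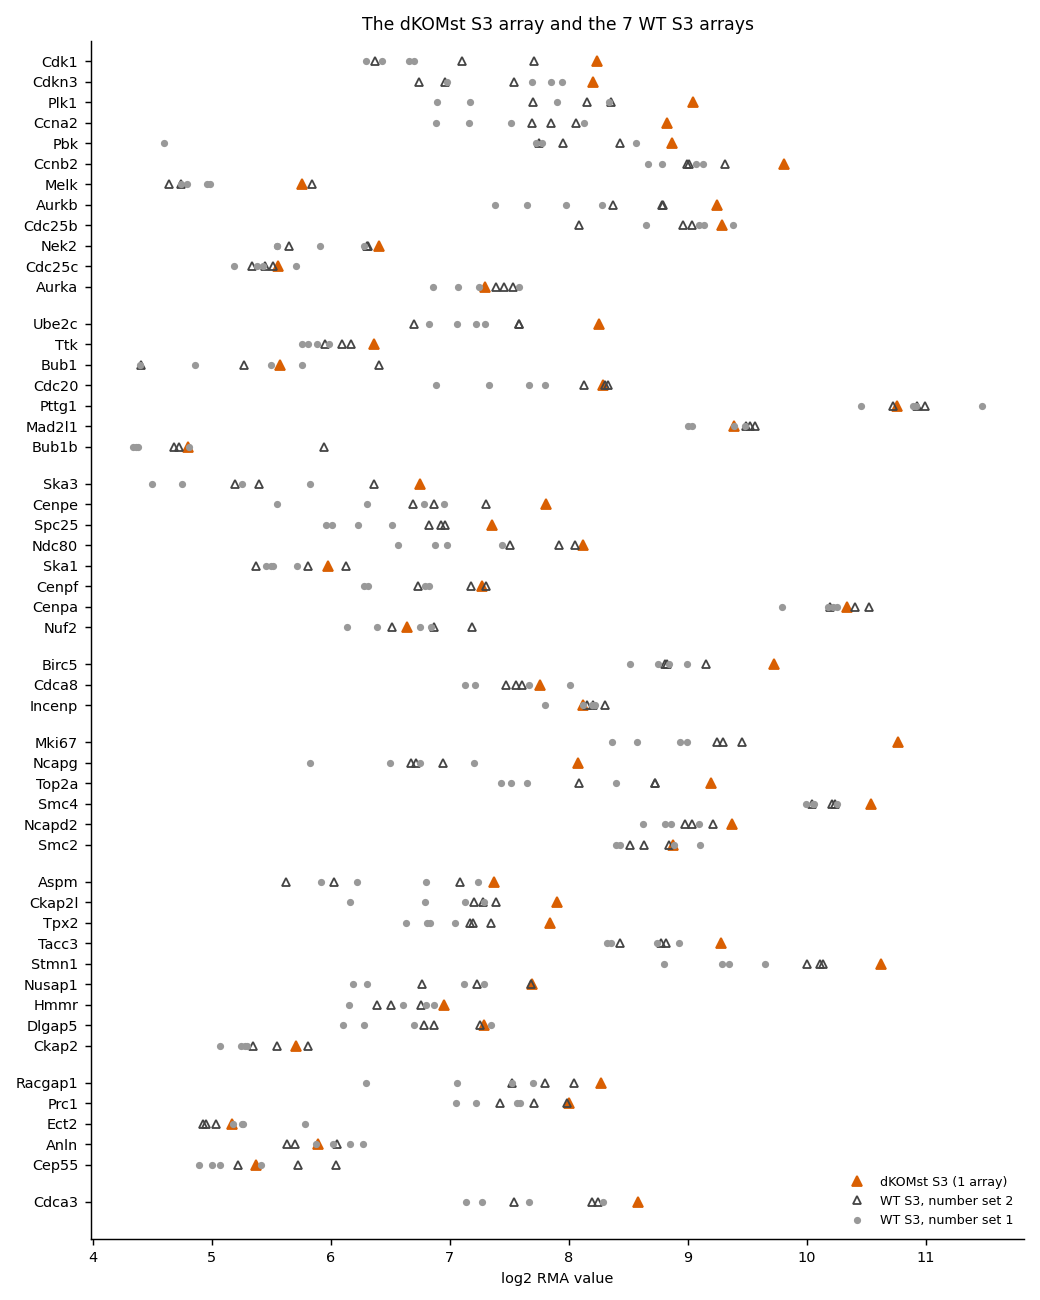
Log2 level (horizontal axis) of each of the 51 genes, grouped by role, on the 1 dKOMst S3 array (filled triangles) and on the 7 WT S3 arrays (open triangles for the 3 of the same number set, grey circles for the other 4). The dKOMst array lies to the right of all WT arrays for 30 genes and to the left of all for none.

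The spread among arrays of a group was wider for mitotic genes than for most clusters. Their median SD was 0.24 in Mst1KO S3 and 0.40 in WT S3 arrays, and 0.20 in dKOMst S1_S2, 0.30 in Mst1KO S1_S2 and 0.38 in WT S1_S2 arrays. Over all clusters the median SD lay between 0.12 and 0.19. The WT groups, which lie in both number sets, had the widest spread.

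Another 68 genes of mitosis, from a list written for comparison, had smaller medians. In WT S3 against WT S1_S2 cells 48 fell (8.75% of all clusters) and Haspin, a histone H3 kinase, rose by 0.33 (8.18% of all rose), with a median of -0.80. Depdc1a fell by 2.46 and the condensin gene Ncaph by 2.36. Mastl, the Greatwall kinase, fell by at least 3.19-fold, since no WT S3 array read above the controls. In Mst1KO cells 33 fell over the stages (4.62% of all clusters) and Mis12 rose (5.58% of all rose). The median was -0.59, with Depdc1a at -2.12, Ncaph at -1.63 and Esco2, a cohesin acetyltransferase, at -1.59. In Mst1KO against WT S3 cells 16 rose (3.73% of all clusters) and none fell (2.64%), with a median of 0.36. Mastl was among them, but no WT array read above the controls and the bound came out under 1-fold, so no fold is given. Sgo1, which protects centromeric cohesion, rose by 1.04 ± 0.23 (adjusted p = 0.0105) and Knl1, of the kinetochore, by 0.84 ± 0.23 (adjusted p = 0.0341). At S1_S2 none of the 68 was called by limma in Mst1KO cells (0.522% of all clusters were). Of the 68, 6 had an unadjusted p under 0.05, as did 1921 of all 22206 clusters. In dKOMst cells 1 was called (0.923% of all clusters were), Haspin (-0.72 ± 0.17, limma adjusted p = 0.04).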

How the data were processed

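RNA of sorted iNKT cells was converted to labelled cDNA with NuGEN kits, per the labels' protocols, and measured on Clariom S mouse arrays. The log2 values were deposited after the authors ran RMA (Affymetrix Expression Console 1.1), per the submitters' processing notes. The annotation build was not given in the sources used here. Of 28846 items 6640 controls were left out and 22206 transcript clusters kept, 19572 of them with exactly 1 symbol in the probe table. A gene took the cluster with its symbol alone and, of several, the one with the highest mean, which no gene needed.

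limma 3.58.1 in R 4.3.3 fitted 6 group means and a number set term to all 25 arrays (lmFit, eBayes, 18 residual degrees of freedom), with Benjamini-Hochberg adjustment over all clusters and calls at an adjusted p under 0.05. The number set (titles up to 528, or from 533) is inferred from title numbers and is not a batch named in the labels. Where 1 group read above the array's median negative control on no array, a fold is a lower bound: the bright group's mean over the mean, for each dim array, of the higher of that median and the cluster's own value. The number of arrays limits the precision. The fit was tested on simulated data. Genes and lists were chosen with earlier results of these data known. Any of the genes could be named, with the largest and smallest difference of each role and comparison in full, and of the other mitotic list up to 3 called genes a comparison. Alternatives covered the number set, the arrays, normalization, weights, variance, filter and call.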

Additional observations from a re-analysis of the deposited data

Results flagged for a closer look

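A single array stood far from the others of its group in 13 of the 204 pairs of gene and group examined (6.37%), where the criterion used (Dixon's, at 95%) would pick out about 5% by chance. Pbk gave 3 of them. It was 7.47 in Mst1KO S3 replicate 5 (others 8.84 to 9.07), 10.33 in Mst1KO S1_S2 replicate 4 (others 10.72 to 10.77) and 4.60 in WT S3 replicate 3 (others 7.72 to 8.57). Mst1KO S1_S2 replicate 4 was also low for Nek2 at 6.75 (others 7.63 to 7.69), Bub1b at 4.95 (others 6.83 to 7.17) and Cenpa at 10.36 (others 10.86 to 10.87). Cep55 was high in Mst1KO S1_S2 replicate 3 at 6.90 (others 6.61 to 6.64).

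Among WT S3 arrays, Melk was 5.84 in replicate 5 (others 4.64 to 4.98), Bub1b 5.94 in replicate 7 (others 4.34 to 4.81), Incenp 7.80 in replicate 2 (others 8.12 to 8.30) and Ect2 5.78 in replicate 4 (others 4.92 to 5.26). Among WT S1_S2 arrays, replicate 1 was low for Cdca8 at 8.02 (others 8.94 to 9.44) and Ect2 at 5.52 (others 6.33 to 6.65). The difference between the Mst1KO effects at S3 and at S1_S2 was called for Mki67, at 1.14 on the log2 scale.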

How the results depend on the processing

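Over single genes and alternatives, 8450 results kept their side of the threshold, 159 lost the call and 47 gained one. None turned its direction past the threshold, but the 8450 include results without a call whose sign changed. The genes called between Mst1KO and WT at S3 numbered 21 with all arrays and 11 with the arrays of the lower number set alone. They numbered 7 without Mst1KO replicates 3 and 4 of both stages, and 15 to 22 when single arrays were left out. Over all clusters the calls numbered 1415, 679 and 475 in turn, and 783 to 1399 when single arrays were left out. For the Mst1KO effect at S3 minus that at S1_S2, 1 gene was called with all arrays and 2 with a trended and robust variance. It was 0 with the lower number set alone, 0 with no number set term and 0 without Mst1KO replicates 3 and 4. Leaving out single arrays gave 1 to 2. Over all clusters the calls in these settings numbered 35, 48, 10, 17 and 0 in turn, and 14 to 61 without single arrays. The cause of these changes was not tested, and settings that drop arrays leave fewer samples. The labels state no pairing, but title numbers 16 (lower set) or 6 (higher set) apart may link arrays of both stages. In an alternative chosen after seeing the data, these 11 pairs were a random replicate block. Then 50 genes were called over the stages in WT and 42 in Mst1KO cells. Between Mst1KO and WT at S3 21 were called, and 2 for the difference of effects (Mki67 and Stmn1). Over all clusters the calls in these comparisons numbered 4011, 2514, 1367 and 53 in turn. Over all clusters the deviations of 10 pairs correlated at -0.11 to 0.17, 2 of them above 0.1, and 10 of 10 S1_S2 arrays correlated best with the S3 array of their own number among those of their genotype and set, which is a hint from the data and not the design. Between dKOMst and Mst1KO cells, fits within a number set or with those groups alone could not be fitted. Genes below the negative controls in a group have only a bound there.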
